A study of Mus musculus with 28 samples.

Results

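The protocadherin genes were taken as every gene of the deposited mouse table whose symbol starts with Pcdh, which gave 67 of 17295 genes. Of these, 57 belong to the clustered protocadherins, namely 12 alternate and 2 C-type Pcdha genes, 22 Pcdhb genes, and 18 alternate and 3 C-type Pcdhg genes. The other 10 are non-clustered genes. The symbol Pcdha11 was given to a pair of identifiers, which are kept apart here as ENSMUSG00000007440 and ENSMUSG00000102206.

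Protocadherins are cadherin-family adhesion proteins of the cell surface that are best known from neurons. In the alpha and gamma clusters, each variable exon has its own promoter and is spliced to constant exons shared by the whole cluster, while beta genes have no shared constant exons. In neurons, alternate isoforms are known to be chosen promoter by promoter, so that neighbouring cells can carry different sets that bind to themselves, whereas C-type isoforms are expressed more uniformly, and the choice is known to involve CTCF, cohesin and DNA methylation.

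RNA was sequenced from 28 libraries, 2 for each of 14 groups of cultured mouse cells. Induced neural stem cells (miNSC) made up 10 groups, untransduced fibroblasts 3 groups and neural stem cells (NSC) 1 group. All miNSC had been made from fibroblasts with lentiviruses for M2rtTA and for Dox-inducible factors, under Dox at 1 μg/mL for 18 days in medium with bFGF and EGF at 10 ng/mL each, and colonies were picked at day 20 and expanded. The factor mixtures were K with eSox17FNV (KF), B and K with eSox17FNV (BKF), K and M with eSox17FNV (KMF), and all of these together (4F), where eSox17FNV is an engineered Sox17 and the single letters are left as labelled. From embryonic fibroblasts (MEF) came BKF and KF lines of ICR strain, and Sox2-GFP lines with each of BKF, KF and KMF. Sox2-GFP mice aged 1.0 year supplied the tail-tip cells of the BKF, KMF and 4F1 lines, the last sampled at passages 8 and 18, and the ear cells of a 4F line. The fibroblast groups were Sox2-GFP skin fibroblasts of 2.5 years and tail-tip fibroblasts of 1.0 and 2.5 years, and the NSC were Sox2-GFP cells of 2.5 years at passages 2 and 5. Counting the passages of 4F1 as 1, there were 9 lines. Comparisons of miNSC or of the tail-tip lines with fibroblasts or NSC instead gave each group the same weight. Both passages of 4F1 thus entered them separately, also where group means served as the samples. Whether a line came from 1 colony or several is not stated, nor is whether replicate libraries came from separate cultures, so the p-values below measure only the spread between libraries of a group. No untransduced MEF or ear fibroblasts were analysed here, and only the tail-tip lines have their own starting tissue beside them. Lines and factor mixtures cannot be told apart.

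The sums of 12 neural stem cell markers were 87784 to 218415 in miNSC, 153220 to 166340 in NSC and 28852 to 42947 in fibroblasts. The sums of 12 fibroblast markers were 789 to 4418, 1829 to 2117 and 226158 to 269345 in the same order, so the markers followed the labels. The 10 neuron markers measured, named because neurons carry protocadherins, summed to 17047 to 34151 in miNSC, 38491 to 95619 in NSC and 778 to 2783 in fibroblasts, where 2 of them were at 0 throughout. Map2 alone made up most of the sum in miNSC (15161 to 32716) and NSC (32716 to 92914). The 8 astrocyte markers summed to 20389 to 50363, 50018 to 73975 and 4991 to 7275. Their part in the results was not tested. The 2.5-year groups and NSC had Xist at 8894 to 92914 with Ddx3y at 0 in all 6 libraries, whereas Xist was at most 253 and Ddx3y at least 808 in the 1.0-year tail-tip fibroblasts and all miNSC. Sex-linked expression therefore moved with age among fibroblasts and with the comparison of miNSC and NSC. It also moved in part with the comparison of miNSC and fibroblasts, through the skin and 2.5-year tail-tip fibroblasts. Library totals lay between 15563679 and 15571626, and the sorted values were nearly the same in every library, with a median of 236 or 237 and an upper quartile of 823 in each, so a value states mainly where a gene ranks within its library. In bulk RNA, fewer cells with a transcript and less of it per cell cannot be told apart.

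Promoter sequences of 300 bases, from 250 bases before the start site, were at hand from RefSeq (GRCm38.p6) for 8 non-clustered members. The 6 letters in capitals below, GATTGG or its reverse complement CCAATC, include the shorter core of a CCAAT box, CCAAT or ATTGG. The following 5 are shown because they hold these letters and their genes differed most clearly between miNSC and fibroblasts or lay apart without overlap. They lie at chr3:45378148-45378447 on the plus strand (Pcdh10), chr14:84443313-84443612 on the plus strand (Pcdh17), chr14:93890630-93890929 on the minus strand (Pcdh9), chr3:49757267-49757566 on the minus strand (Pcdh18) and chrX:133688944-133689243 on the minus strand (Pcdh19).
Pcdh10: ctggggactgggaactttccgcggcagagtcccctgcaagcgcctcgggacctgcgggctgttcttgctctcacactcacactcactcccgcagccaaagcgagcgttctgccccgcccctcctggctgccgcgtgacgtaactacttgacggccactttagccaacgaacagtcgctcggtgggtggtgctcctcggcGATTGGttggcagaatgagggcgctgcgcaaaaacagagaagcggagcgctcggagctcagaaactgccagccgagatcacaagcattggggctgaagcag
Pcdh17: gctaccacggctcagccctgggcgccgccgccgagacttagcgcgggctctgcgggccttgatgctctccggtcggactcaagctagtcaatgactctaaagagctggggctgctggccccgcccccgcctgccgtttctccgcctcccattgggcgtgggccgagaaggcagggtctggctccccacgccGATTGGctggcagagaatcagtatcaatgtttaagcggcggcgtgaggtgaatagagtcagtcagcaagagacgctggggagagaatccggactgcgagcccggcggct
Pcdh9: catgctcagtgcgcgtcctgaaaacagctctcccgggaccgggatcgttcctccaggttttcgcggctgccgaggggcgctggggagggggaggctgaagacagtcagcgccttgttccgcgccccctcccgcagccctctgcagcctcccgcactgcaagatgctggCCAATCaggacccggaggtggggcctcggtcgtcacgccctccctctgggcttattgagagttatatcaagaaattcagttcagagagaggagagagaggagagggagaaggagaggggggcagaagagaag
Pcdh18: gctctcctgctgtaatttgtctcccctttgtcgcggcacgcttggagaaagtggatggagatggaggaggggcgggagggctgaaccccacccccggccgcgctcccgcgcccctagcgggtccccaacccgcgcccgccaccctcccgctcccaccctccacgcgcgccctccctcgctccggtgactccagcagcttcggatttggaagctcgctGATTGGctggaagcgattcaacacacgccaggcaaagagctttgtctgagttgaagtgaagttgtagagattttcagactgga
Pcdh19: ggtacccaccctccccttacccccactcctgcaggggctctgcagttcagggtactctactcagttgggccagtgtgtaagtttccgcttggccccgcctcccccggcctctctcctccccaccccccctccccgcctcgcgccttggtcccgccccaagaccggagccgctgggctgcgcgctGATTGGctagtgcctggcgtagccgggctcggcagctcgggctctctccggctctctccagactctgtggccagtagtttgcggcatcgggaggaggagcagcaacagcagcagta

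Searched on both strands, GATTGG was found in 5 of the 8 promoters, against 16.1% of all 32851 promoters of the same length. It was searched for after these sequences had been seen. The Klf-like letters GGGNGTGG were in 3 of the 8 (Pcdh17, Pcdh18 and Pcdh19) and in 17.6% of all. The Sox-like letters ACAATG, in 12.6% of all, and the octamer ATGCAAAT, in 1.74%, were in 0 of the 8, which says only that these letters are not in these windows. CG dinucleotides numbered 26 in Pcdh17, 24 in Pcdh10, 23 in Pcdh18, and 18 each in Pcdh9 and Pcdh19, where all promoters had a median of 7. The promoters of Pcdh7, Pcdh15 and Pcdh20 held 11, 8 and 4 and no GATTGG. The shorter core was still there in Pcdh15 as ATTGG and in Pcdh20 as CCAAT, and its share over all promoters was not counted. Thus promoters of genes that were higher in miNSC and of genes that were lower shared GATTGG.

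On GRCm38 (mm10), the alpha cluster runs over chr18:36930184-37187661, the beta cluster over chr18:37264938-37524479 and the gamma cluster over chr18:37661793-37841873. In the GENCODE M21 annotation every Pcdha model shares an exon with 13 other Pcdha members and every Pcdhg model with 20 other Pcdhg members, while no Pcdhb model shares one. Values of single Pcdha and Pcdhg genes thus depend on how reads of the constant exons were divided among isoforms, and Pcdhb genes are similar paralogs.

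The first question was how miNSC differed from fibroblasts. Most alternate Pcdha, Pcdhb and non-clustered genes were higher in miNSC, and alternate Pcdhg genes were mostly lower. A mean of 10 or more across the libraries was required, which 65 members had. Of these, 58 (89.2%) passed an adjusted p of 0.05, 39 higher and 19 lower, by limma on log2(value + 1) with Benjamini-Hochberg adjustment over all 16275 genes tested. Among all genes tested 76.5% were called, 42.8% higher and 33.7% lower. The median log2 difference was 0.64 over the members and 0.10 over all genes tested. Pcdhb1 and Pcdh20 were below the filter. The libraries of miNSC and fibroblasts did not overlap for 19 of the 67 members (28.4%), 17 higher and 2 lower in miNSC, against 31.9% of all genes tested. Where group means served as the samples, 41 members were called. The share of all genes tested was not kept for that fit, so this count cannot be set against it.

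**Figure D1:**
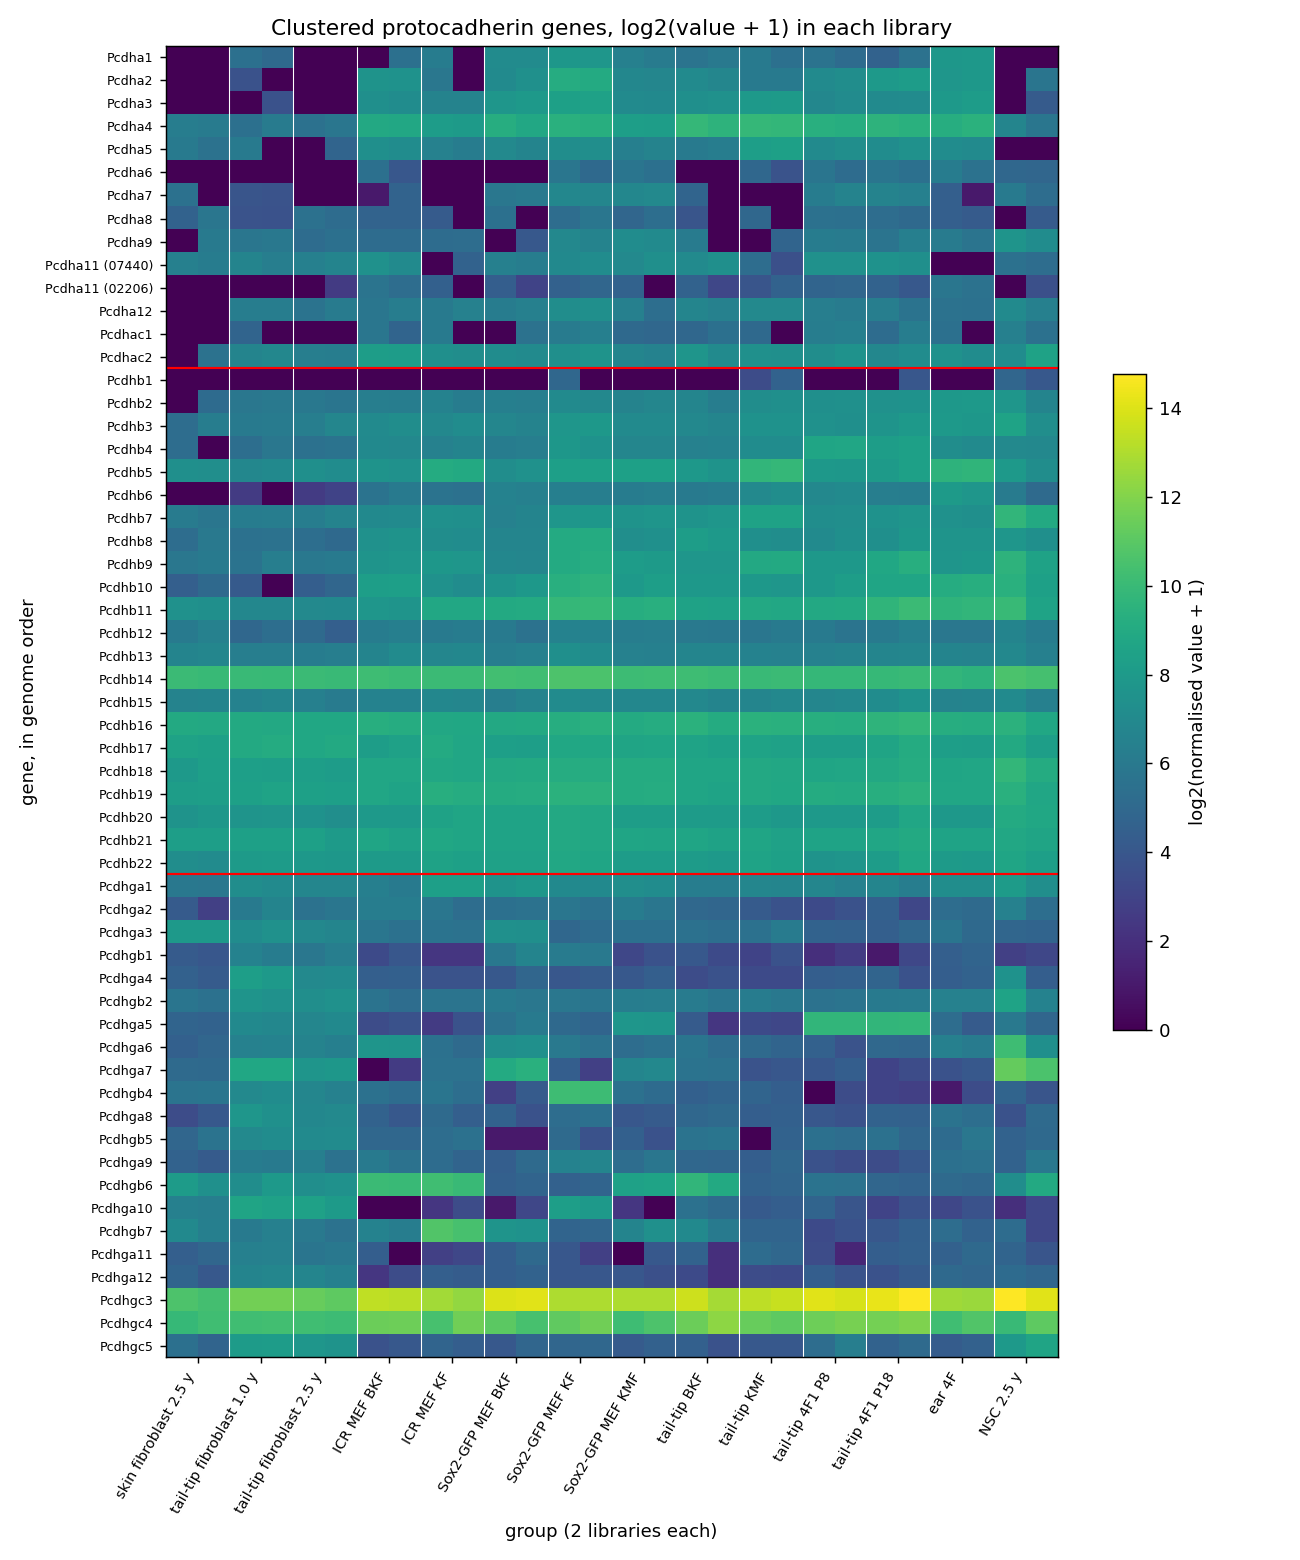
Values of the 57 clustered protocadherin genes as log2(value + 1), rows in genome order with red lines between the alpha, beta and gamma clusters, columns the 2 libraries of each of 14 groups. Pcdhgc3 and Pcdhgc4 are bright in every column, Pcdha2 to Pcdha5 are brighter in miNSC than in fibroblasts, and among alternate Pcdhg genes different rows stand out in different lines.

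The alpha genes were low in fibroblasts, with at most 112 in any library. Of the 12 alternate Pcdha genes, 9 rose in miNSC and 0 fell, with a median log2 difference of 3.27. At an unadjusted p under 0.05, too, 0 fell. With group means as the samples, 7 of the 9 kept the call and 2 lost it. Pcdha4 stood at 42, 62.0 and 76 (lowest, median, highest of 6) in fibroblasts, at 268, 601.0 and 908 in the 20 miNSC libraries, and at 54 and 105 in NSC. Every miNSC library was thus above every fibroblast and NSC library, and the log2 difference from fibroblasts was 3.24 ± 0.12 (SE; adjusted p = 9.21e-14). Pcdha3 stood at 0 to 12 in fibroblasts, 97 to 344 in miNSC, and 0 and 18 in NSC, again without overlap (6.86 ± 0.47, adjusted p = 7.55e-10). Pcdha5 reached 65 to 341 in miNSC and at most 66 in fibroblasts, while it was listed at 0 in both NSC libraries. For genes near 0, the size of a log2 difference depends on the added 1. Of the C-type alpha genes, Pcdhac2, which serotonergic axons of the mouse need for their spacing, stood at 94 to 298 in miNSC, 0 to 112 in fibroblasts and 146 and 367 in NSC.

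Beta genes rose more evenly. Of 21 tested, 19 were higher and 1, Pcdhb17, was lower in miNSC (median 0.69), and 10 of them were above all fibroblast libraries. With group means as the samples, limma kept 15 of these calls as higher and 0 as lower, and 5 were lost. Pcdhb17 was among those lost (adjusted p = 0.222). Pcdhb10 stood at 0, 20.5 and 32 in fibroblasts and at 146, 275.0 and 745 in miNSC, with 652 and 342 in NSC (4.44 ± 0.37, adjusted p = 8.2e-09). Pcdhb6 stood at 0 to 7 in fibroblasts and at 44 to 264 in miNSC, without overlap (5.13 ± 0.24). Pcdhb14 did not pass the test and stood at 994 to 1074, 751 to 1586, and 1532 and 1358 in fibroblasts, miNSC and NSC. In sum over the 22 beta genes, fibroblast libraries gave 4007 to 4388, miNSC libraries 5627 to 9648, and NSC libraries 10560 and 6823, so all miNSC libraries were above all fibroblast libraries.

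Gamma genes split by class. Of the 18 alternate Pcdhg genes, 14 fell and 1, Pcdhga1, rose (median log2 difference -1.60). With group means as the samples, 9 of these 15 calls were lost, which left 6 lower and 0 higher; the adjusted p of Pcdhga1 was then 0.474 and that of Pcdhga5 0.789. Of the C-type genes, Pcdhgc3 and Pcdhgc4 rose and Pcdhgc5 fell. Pcdhgc3 stood at 1308, 2368.5 and 3192 in fibroblasts, at 5242, 9828.0 and 28060 in miNSC, and at 28060 and 17981 in NSC (miNSC against fibroblasts 2.24 ± 0.12, adjusted p = 1.53e-11). Every miNSC library was above every fibroblast library. Pcdhgc4, which mouse interneurons need to survive, stood at 969 to 1263 in fibroblasts and at 1160 to 4838 in miNSC, and the groups overlapped (1.03 ± 0.17, adjusted p = 4.6e-05). Pcdhgc5 stood at 26 to 292 in fibroblasts, 12 to 78 in miNSC, and 247 and 390 in NSC (-2.42 ± 0.17 against fibroblasts). Gamma transcripts have annotated lengths of 4661 to 5777 bases, so shares per length could be set side by side. Alternate genes together held 28.5 to 39.1% of gamma values per length in fibroblasts, 3.67 to 31.2% in miNSC, and 11.8 to 14.4% in NSC. Pcdhgc3 alone held 38.2 to 43.6%, 46.7 to 84.9%, and 77.7 to 82.2%, and was the largest single gamma gene in each library.

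Against fibroblasts of their own starting tissue, the tail-tip lines had lower alternate Pcdhg genes. Of 65 members 51 (78.5%) were called, 29 higher and 22 lower, against 66% of all genes tested (36.7% higher and 29.4% lower). Of the 18 alternate Pcdhg genes, 17 fell and 0 rose (median -2.36), and 0 rose at an unadjusted p under 0.05. Pcdhga1, a little higher in miNSC as a whole (0.38 ± 0.09), was lower here (-0.63 ± 0.15, adjusted p = 0.0017). Pcdhga5 was the exception that was not called (-0.43 ± 0.40), and its values follow below. The average over lines also hid differences between them. Pcdhgb6 counted as lower, yet stood at 850 and 498 in tail-tip BKF, above the 148 and 242 of these fibroblasts. Comparisons with the 1.0-year tail-tip fibroblasts and with all fibroblasts share these 2 control libraries.

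The main question for single lines was which members were on in them. A gene was taken as on in a line where every library of the line had a value of at least 50, a level that 73.6 to 74.1% of all genes tested reached in each miNSC group. By this rule 34 of the 65 members tested were on in all 9 lines, 9 in none, 22 (33.8%) in 1 to 8 lines and 5 (7.69%) in exactly 1 line. The shares of all genes tested were 17.4% for 1 to 8 lines and 3.39% for 1 line. The alternate Pcdhg genes contributed 12 of the 22 and alternate Pcdha genes 6, whereas 19 of 21 Pcdhb and 8 of 9 non-clustered genes were on in all 9 lines. The members on in 1 line were Pcdhgb4, Pcdhga10, Pcdhga9 and Pcdhac1 in the Sox2-GFP KF line and Pcdhga3 in the Sox2-GFP BKF line. The count depends on the level chosen, being 0, 5, 5 and 11 at levels of 20, 50, 100 and 200, and it was 3 without replicate 2 of either ICR line. All genes tested gave 3.17, 3.39, 3.32 and 3.65% at these levels, so at 20 the members showed no excess. For 1 to 8 lines the count was 25, 22, 26 and 26, against 18.3, 17.4, 17.0 and 17.7% of all genes tested.

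The level of 50 decided some of these narrowly. Pcdhac1 stood at 70 and 83 in the Sox2-GFP KF line, but 4F1 had 75 and 83 at passage 8 and 36 and 76 at passage 18. Pcdhga9 stood at 94 and 106 in the same line, at 10 to 67 in the others and at 18 to 82 in fibroblasts. Pcdhga3 stood at 172 and 166 in the Sox2-GFP BKF line and at 21 to 70 in the others, while fibroblasts had 103 to 255. Fibroblasts thus reached or passed the line that was on for Pcdhga3, and for Pcdhga9 came close to it.

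Of the members on in 2 or 3 lines, Pcdhgb1 stood at 59 and 100 in Sox2-GFP BKF, 70 and 63 in Sox2-GFP KF and 1 to 26 in the other lines. Pcdhga2 stood at 76 in both ICR BKF libraries, at 72 and 55 in Sox2-GFP KMF and at 8 to 54 in the others. Pcdhga6 stood at 210 and 202 in ICR BKF, 156 and 172 in Sox2-GFP BKF, 86 and 70 in the ear 4F line and 13 to 63 in the others, where NSC had 1144 and 163. Among the lines, none of these libraries was above 210.

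Pcdhgb4 stood at 1169 and 1138 in the Sox2-GFP KF line, at 46.0 on average in the next line, at 50 to 146 in fibroblasts, and at 26 and 14 in NSC. This line was alone at this level among all 14 groups, and against the mean of the other 8 lines the log2 difference was 5.98 ± 0.63 (limma, adjusted p = 1.85e-06). Pcdhga10 stood at 316 and 242 in the same line and at 38.5 on average in the next, while tail-tip fibroblasts had 262 to 396 and skin fibroblasts 87 and 80 (5.24 ± 0.52, adjusted p = 1.13e-06). Among the lines such a level was seen once, and tail-tip fibroblasts matched it.

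Pcdhgb7 stood at 1750 and 1418 in the ICR KF line, against 191.0 on average in the next line and 46 to 126 in fibroblasts (4.88 ± 0.37, adjusted p = 7.07e-08). It was on in 4 other lines at far lower values. Pcdhga7 stood at 526 and 672 in the Sox2-GFP BKF line and at 111.5 on average in the next, but at 2446 and 1516 in NSC (4.92 ± 0.44 against the other lines, adjusted p = 1.85e-06). Here the NSC libraries were above every line.

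Pcdhga5 marked the tail-tip 4F1 line at both passages, with 835 and 832 at passage 8 and 843 and 896 at passage 18. The 1.0-year tail-tip fibroblasts had 128 and 114, and the next line, Sox2-GFP KMF, had 218 and 208 (5.17 ± 0.28 in 4F1 against the other lines, adjusted p = 1.29e-09). All 4 libraries of 4F1 were above every other library of the study. Pcdhgb6 was shared by several lines, with 1074 and 1018 in ICR BKF, 1212 and 1013 in ICR KF, 850 and 498 in tail-tip BKF, and 346 and 384 in Sox2-GFP KMF. In the other 5 lines it was at 22 to 48. Its line-against-others differences were 3.50 ± 0.30, 3.60 ± 0.30 and 2.73 ± 0.30 in the first 3 of these, while fibroblasts stood at 148 to 272 and NSC at 150 and 507.

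**Figure D2:**
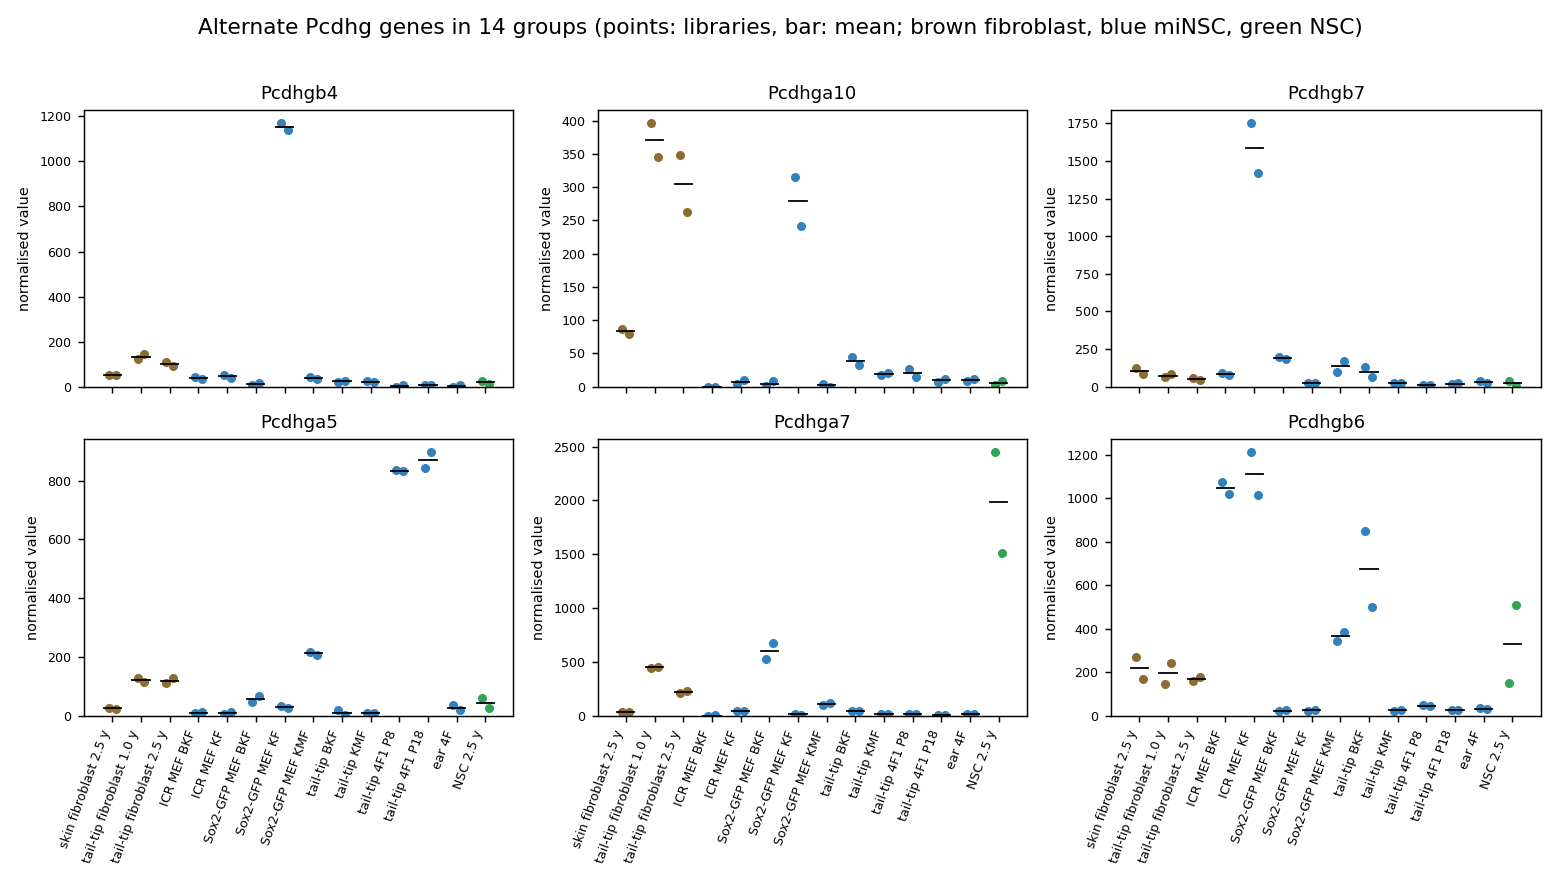
Normalised values of 6 alternate Pcdhg genes in 14 groups, points for the 2 libraries and a bar for their mean, each panel with its own scale from 0. Pcdhgb4 is high in the Sox2-GFP KF line (1169 and 1138), Pcdhgb7 in ICR KF (1750 and 1418), Pcdhga5 in 4F1 at both passages (832 to 896), and Pcdhgb6 in 4 lines.

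Over all members, 169 of 585 pairs of a member and a line (28.9%) were called against the other 8 lines, close to the 26.3% of all genes tested. Calls at least 4-fold higher in a line were 24 of 585 (4.1%), where all genes tested gave 1.16%. Of the 65 members, 12 had such a call in at least 1 line, against 7.18% of all genes tested. The calls came from 9 alternate Pcdhg genes (15 of 162 pairs, 9.26%) and 3 alternate Pcdha genes (9 of 108, 8.33%). Pcdhb, C-type and non-clustered genes gave 0 such calls, although 46 Pcdhb and 28 non-clustered pairs were called at smaller sizes. The alpha calls came from Pcdha6, Pcdha7 and the Pcdha11 entry ENSMUSG00000007440, whose line means were at most 59.5, 117.0 and 174.2. Pcdha6 was listed at 0 in both libraries of ICR KF, Sox2-GFP BKF and tail-tip BKF, at 13 to 72 in the other lines and at 0 in fibroblasts. Pcdha7 stood at 74 to 122 in Sox2-GFP KF, Sox2-GFP KMF and 4F1, at 56 and 62 in Sox2-GFP BKF and at 0 to 26 in the other lines. The Pcdha11 entry stood at 124 to 182 in ICR BKF, Sox2-GFP KF, Sox2-GFP KMF, 4F1 and tail-tip BKF, at 84 and 77 in Sox2-GFP BKF and at 0 to 38 in the rest. With a pseudocount of 16 in place of 1, 9 of the 15 gamma calls and 0 of the 9 alpha calls were still at least 4-fold, while Pcdha2 in Sox2-GFP KF became so (2.10, adjusted p = 0.000744). The share of all genes tested at this pseudocount was not kept. The gamma calls of Pcdhgb4, Pcdhgb7, Pcdhga5, Pcdhga7 and Pcdhgb6 given above and that of Pcdhga10 in Sox2-GFP KF were called in all 35 alternative fits.

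An F test over the 9 lines called 46 of 65 members (70.8%), against 66.4% of all genes tested. By class these were 15 of 18 alternate Pcdhg genes, 7 of 9 non-clustered, 15 of 21 Pcdhb, 6 of 12 alternate Pcdha, 3 of 3 C-type Pcdhg and 0 of 2 C-type Pcdha genes. With 1 added to the values, the size of the differences separated the classes more than the calls did. The log2 range of line means had a median of 3.01 for alternate Pcdhg genes and 2.96 for alternate Pcdha genes, against 0.98 for Pcdhb, 1.5 for non-clustered genes and 1.06 over all genes tested. Such ranges depend on the added 1 where a line is at 0, as for Pcdhga10 (8.13), the Pcdha11 entry ENSMUSG00000007440 (7.45), Pcdha7 (6.88) and Pcdha6 (5.92). The alternates also differed more between replicate libraries, by a median absolute log2 value of 0.258 for Pcdhg and 0.226 for Pcdha, where all genes tested had 0.107.

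The breadth of alternate Pcdhg expression differed widely between groups. All 18 were on in 1.0-year tail-tip fibroblasts, 15 in 2.5-year tail-tip fibroblasts, 6 in skin fibroblasts, 5 in NSC and 2 to 7 in miNSC groups, where 72.1 to 74.2% of all genes tested were on in each group. In each miNSC group fewer were on than in tail-tip fibroblasts. An effective number of genes was computed as the inverse of the summed squared shares per length, which is 18 for equal shares and 1 for a single gene. It was 12.51 to 14.34 in tail-tip fibroblasts, 7.45 and 8.20 in skin fibroblasts, 3.23 and 2.90 in NSC, and 2.08 to 10.94 in miNSC. In 4F1, Pcdhga5 alone held 66.1 and 68.2% at passage 8 and 65.8 and 68.6% at passage 18. Pcdhgb6 held 57.7 and 59.5% in ICR BKF, Pcdhgb4 53.4 and 56.2% in Sox2-GFP KF, Pcdhga7 49.4 and 54.8% in NSC, and Pcdhgb7 46.7 and 44.7% in ICR KF. The tail-tip KMF and ear 4F lines had no such leading gene, and their largest share was that of Pcdhga1 at 19.4 to 22.1%.

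**Figure D3:**
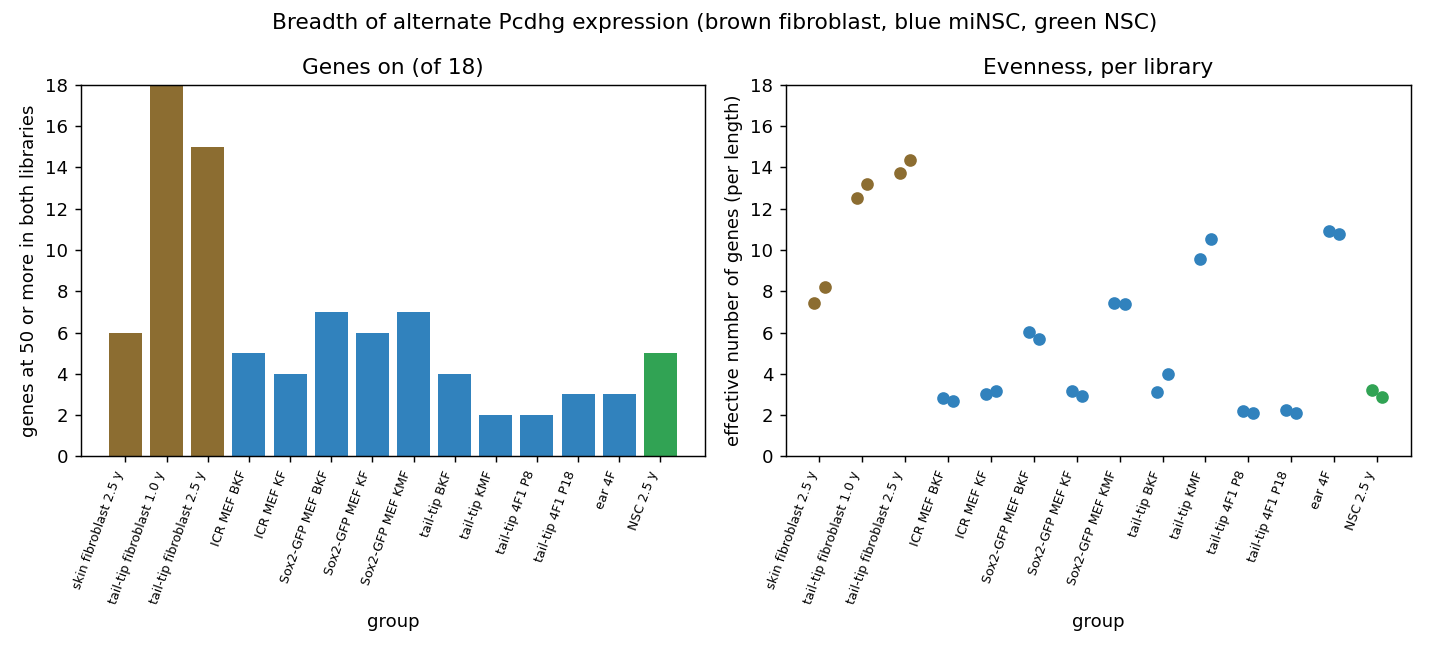
Left, the number of the 18 alternate Pcdhg genes at 50 or more in both libraries of each group; right, the effective number of these genes per library, from shares per length. Tail-tip fibroblasts have 15 and 18 genes on and effective numbers of 12.51 to 14.34, miNSC groups 2 to 7 on and 2.08 to 10.94.

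The gene on in all 9 lines was Pcdhga1, at 68 to 320 in miNSC and 56 to 153 in fibroblasts. In no line were Pcdhga4, Pcdhga8, Pcdhga11, Pcdhga12 and Pcdhgb5 on, with at most 58 in any miNSC library. All of them were on in tail-tip fibroblasts of 1.0 and 2.5 years, but none in skin fibroblasts or NSC. Pcdhga4, for one, stood at 9 to 28 in miNSC, at 23 and 18 in skin fibroblasts and at up to 306 in tail-tip fibroblasts. For alpha, Pcdha4 led in every miNSC group with 23.7 to 53.3% of alternate Pcdha values per length. In fibroblasts the Pcdha11 entry ENSMUSG00000007440 led, with 22.6 to 32.6%, and in NSC Pcdha9 did, with 34.1 and 29.3%. All miNSC groups thus had the same leading alternate Pcdha gene, while 6 different alternate Pcdhg genes led in 1 or more of the lines.

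The tail-tip 4F1 line was measured at passages 8 and 18. Of 65 members 11 (16.9%) were called, 9 higher and 2 lower at passage 18, against 35.1% of all genes tested (17.5% and 17.6%). Of the alternates, 0 of 18 Pcdhg and 0 of 12 Pcdha genes were called by limma, and 0 at an unadjusted p under 0.05. This does not show that they were unchanged, since each gene's spread was pooled over all 14 groups. Pcdha2 stood at 131 and 150 at passage 8 and at 248 and 288 at passage 18, and was not called. Its pooled spread included the ICR KF line at 56 and 0. The calls were 7 Pcdhb genes, Pcdh9 and Pcdh10 higher, and Pcdh18 and Pcdh19 lower. Pcdhb9 had the largest log2 difference (1.15 ± 0.25, adjusted p = 0.0023) and Pcdh9 followed (0.93 ± 0.20, adjusted p = 0.0018). The count was 6 to 19 when single libraries were left out: 19 without either NSC library, 6 without passage 18 replicate 2, 7 without passage 8 replicate 1 and 6 without passage 8 replicate 2. Deviations of the 18 alternate Pcdhg genes from the mean of the lines correlated between libraries with r of 0.82 to 0.87 for the 4 pairs across passages. For the 10 pairs of replicates r was 0.50 to 0.96, and for 176 pairs of different lines it was -0.77 to 0.65 with a median of -0.15. Taking deviations from the mean of these same lines by itself pulls r between lines below 0. Over all genes tested the medians were 0.11 across passages, 0.43 for replicates and -0.10 for different lines. These values describe genes within libraries that share sequence and reads, and they are not tests.

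**Figure D4:**
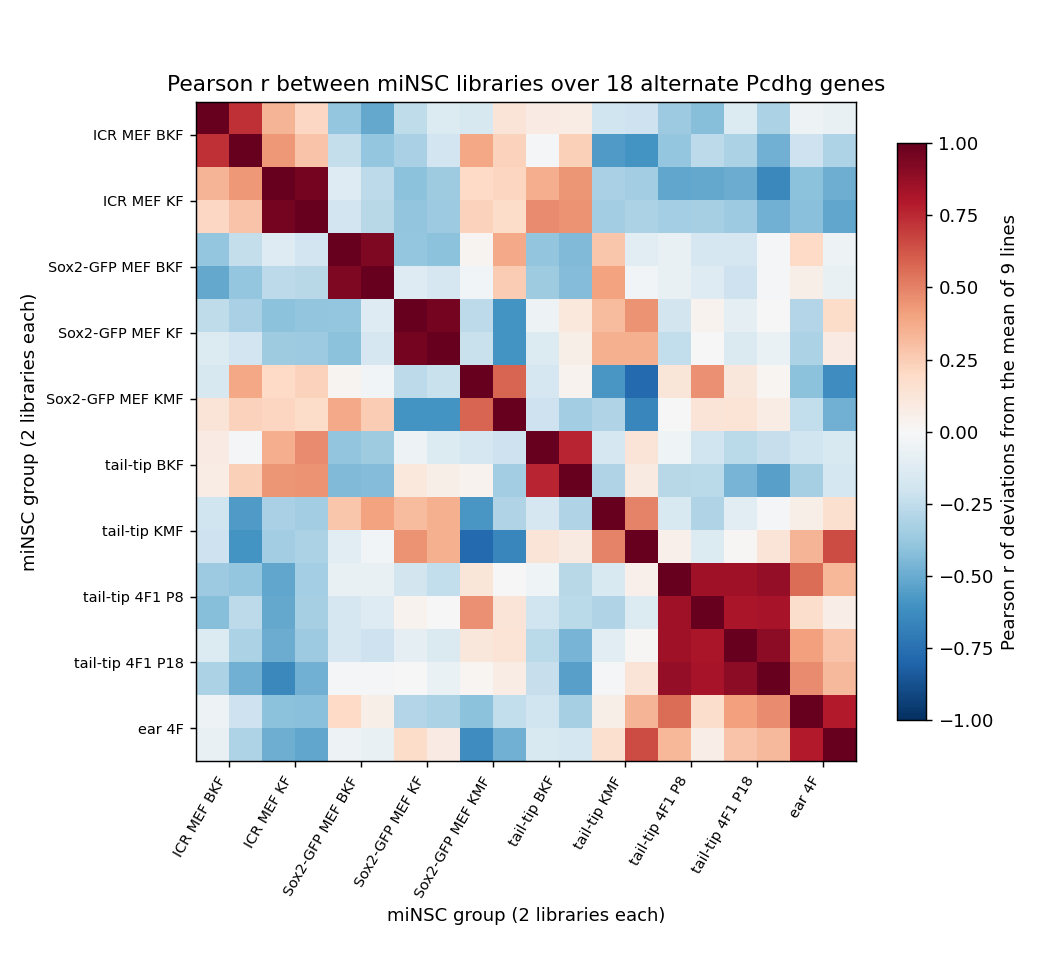
Pearson r between the 20 miNSC libraries over 18 alternate Pcdhg genes, from deviations of log2(value + 1) from the mean of 9 lines, 2 libraries per group on both axes. The 4 libraries of the 4F1 line form 1 block across passages 8 and 18 (r 0.82 to 0.87), and pairs of different lines range from -0.77 to 0.65.

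Lines made from one strain with and without B were also compared, where line and mixture cannot be told apart. In ICR, BKF and KF differed in 17 of 65 members (26.2%; 7 higher and 10 lower in BKF), against 13.1% of all genes tested (6.69% and 6.42%). This count fell to 10 without ICR BKF replicate 1, ICR BKF replicate 2 or ICR KF replicate 2. In Sox2-GFP cells they differed in 27 members (41.5%; 7 higher and 20 lower), against 37.7% of all (19.2% and 18.5%). Pcdhga7 had opposite signs, at -4.28 ± 0.58 in ICR and 5.62 ± 0.58 in Sox2-GFP cells (adjusted p = 8.8e-05 and 2.3e-06). The same held for Pcdhgb7, at -4.23 ± 0.49 and 2.78 ± 0.49. Of the Pcdhb genes, 4 were called in ICR and 11 in Sox2-GFP cells, all lower in BKF.

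Between tail-tip fibroblasts of 2.5 and 1.0 years, 4 of 65 members (6.15%) were called, against 11% of all genes tested (5.63% higher and 5.41% lower). Pcdh1 (-1.69 ± 0.28), Pcdh17 (-4.23 ± 1.18) and Pcdha1 (-5.24 ± 1.51) were lower at 2.5 years and Pcdhb10 was higher (2.54 ± 0.79). Pcdha1 stood at 42 and 32 at 1.0 year and at 0 in both libraries of 2.5 years. Pcdhb10 stood at 17 and 0 and then at 20 and 28, and Pcdh17 at 162 and 199 and then at 92 and 0. With libraries at 0, the sizes for Pcdha1, Pcdhb10 and Pcdh17 depend on the added 1. The call of Pcdhb10 was lost in 30 of 35 alternative fits, that of Pcdha1 in 5 and that of Pcdh17 in 2. Of the 18 alternate Pcdhg genes limma called 0, and 1 had an unadjusted p under 0.05. The count was 8 without either NSC library, 1 without 1.0-year replicate 2 and 2 without either 2.5-year library. Age cannot be told apart from the difference in Xist and Ddx3y.

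Of the 9 non-clustered genes tested against fibroblasts, 6 rose and 3 fell, where 76.5% of all genes tested were called. With group means as the samples Pcdh7 lost its call and the other 8 kept theirs. Pcdh10, an adhesion protein of growing axons, stood at 70, 80.5 and 104 in fibroblasts, at 1120, 2865.5 and 4209 in miNSC, and at 7288 and 3820 in NSC. The groups were far apart (4.95 ± 0.09, adjusted p = 6.93e-18). Pcdh9 stood at 104 to 186 in fibroblasts, 892 to 3924 in miNSC, and 1814 and 1055 in NSC (3.53 ± 0.09, adjusted p = 1.65e-15). The Sox2-GFP KF line was highest, with a mean of 3828.5, and the next, tail-tip KMF, had 2237.0.

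Pcdh17, an adhesion protein of axons and presynaptic endings, stood at 0, 46.0 and 199 in fibroblasts, at 362, 501.5 and 1067 in miNSC, and at 941 and 678 in NSC. There was no overlap with fibroblasts (5.47 ± 0.55, adjusted p = 1.02e-07), but skin fibroblasts were listed at 0 and 1.0-year tail-tip fibroblasts at 162 and 199. Against the latter alone the tail-tip lines, at 492 to 842, did not overlap but were not called (1.77 ± 0.93, adjusted p = 0.11). That SE rests on a spread pooled over all groups, which included the 2.5-year tail-tip fibroblasts at 92 and 0. Pcdh11x, on the X chromosome, stood at 46 to 99 in fibroblasts and 301 to 1354 in miNSC without overlap (3.13 ± 0.16). The 1.0-year tail-tip fibroblasts, which share low Xist with the lines, had 99 and 92, and the part of sex-linked expression was not tested. Pcdh1 stood at 7 to 34 in tail-tip fibroblasts, but at 432 and 381 in skin fibroblasts, and at 100 to 708 in miNSC (2.57 ± 0.13). Skin fibroblasts lay within the range of miNSC and tail-tip fibroblasts below it.

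Pcdh19, an X-linked gene whose human counterpart is mutated in an epilepsy, was lower in every miNSC library than in any fibroblast library. It stood at 3110, 3450.0 and 3708 in fibroblasts, at 438, 605.0 and 872 in miNSC, and at 650 and 535 in NSC (-2.525 ± 0.04 against fibroblasts, adjusted p = 5.05e-18). The fall had a like size against 1.0-year tail-tip fibroblasts (-2.67 ± 0.07), which share low Xist with the lines. For Pcdh19, too, the part of sex-linked expression was not tested. Pcdh18, whose mouse protein binds the adaptor Dab1, stood at 342 to 546 in fibroblasts, 108 to 310 in miNSC, and 74 and 72 in NSC, so miNSC lay between both without overlap (-1.01 ± 0.09 against fibroblasts, 1.51 ± 0.14 against NSC). Pcdh7 had a log2 difference of -0.34 ± 0.07, whose call was lost with group means as the samples (adjusted p = 0.51), with skin fibroblasts at 496 and 476 below all miNSC libraries, which had 676 to 1636, and tail-tip fibroblasts at 1862 to 2640 above them.

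**Figure D5:**
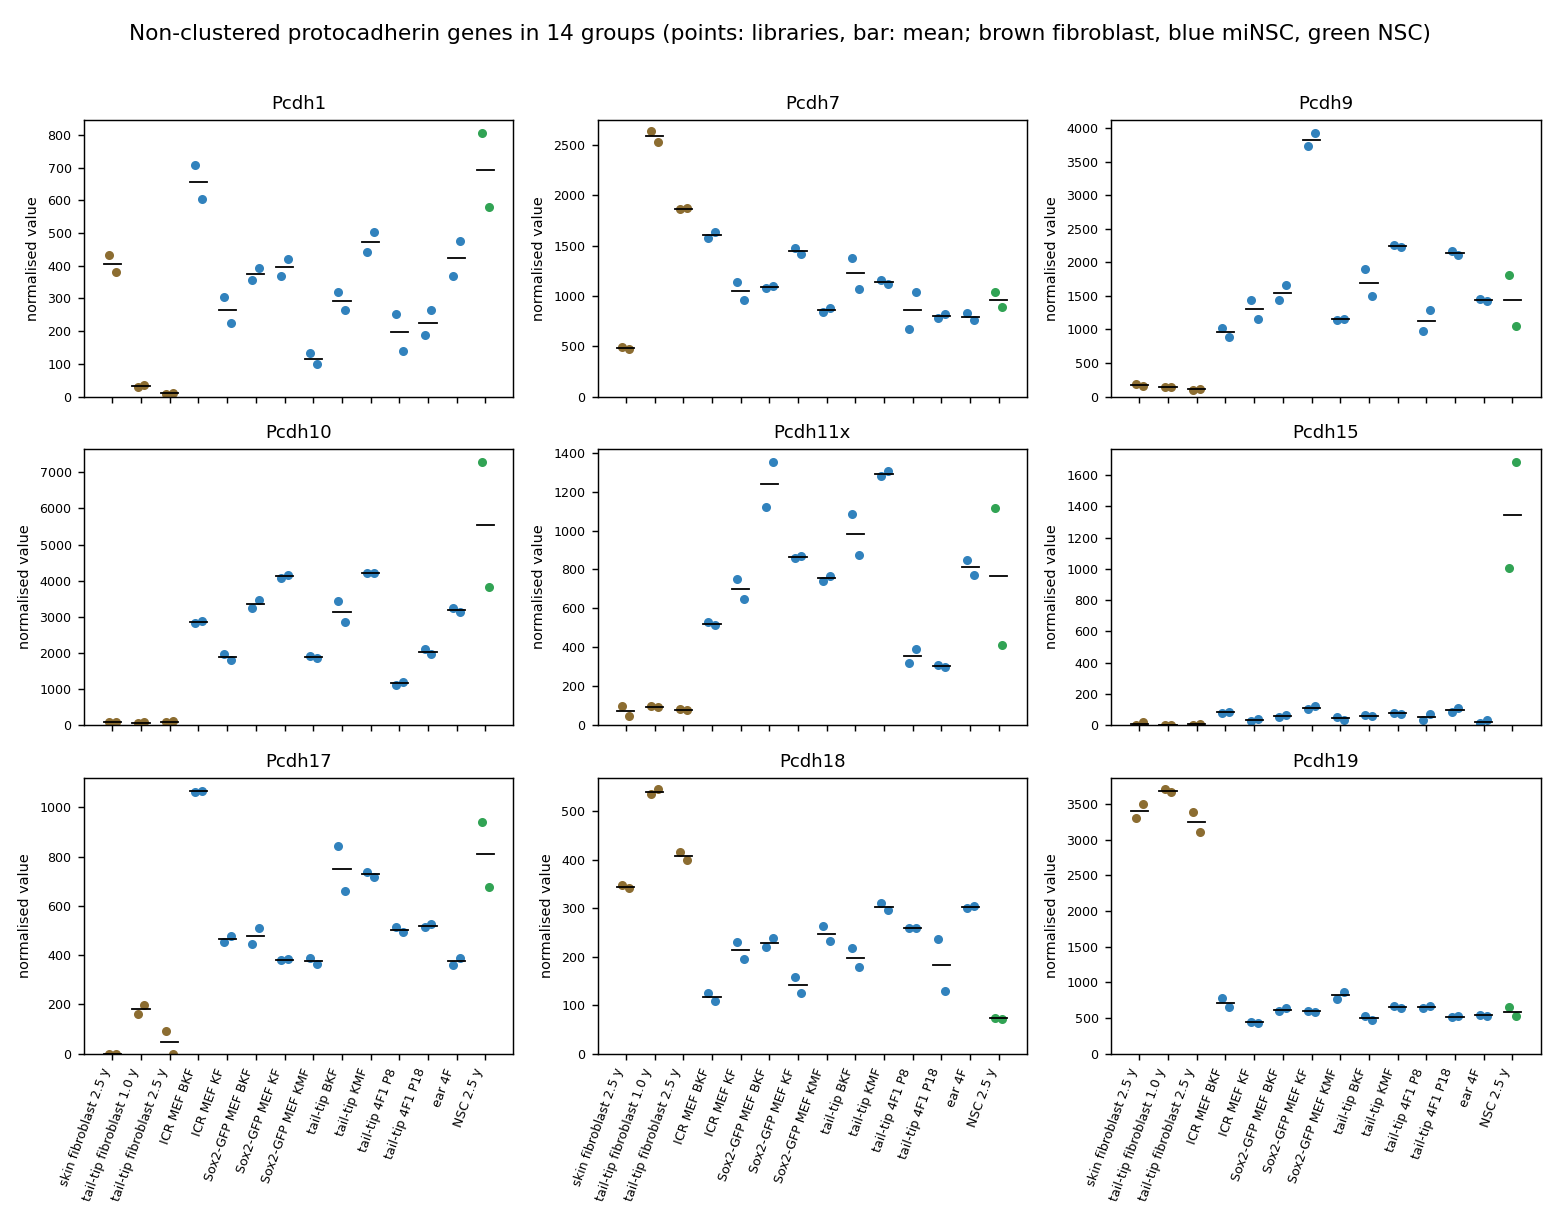
Normalised values of 9 non-clustered protocadherin genes in 14 groups, points for the 2 libraries and a bar for their mean, each panel with its own scale from 0. Pcdh9, Pcdh10 and Pcdh11x are higher in all miNSC libraries than in fibroblasts, Pcdh18 and Pcdh19 are lower, and Pcdh15 is at 1006 or more in NSC and at 120 or less in miNSC.

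Against NSC, 27 of 65 members (41.5%) were called, 9 higher and 18 lower in miNSC, close to the 40.6% of all genes tested (20.9% higher and 19.7% lower). The median was -0.25, and 0.03 over all. The libraries did not overlap for 10 of 67 members (14.9%), against 8.06% of all genes tested. Pcdha3, Pcdha4, Pcdha5 and Pcdh18 were higher in miNSC, and Pcdh15, Pcdh20, Pcdhb7, Pcdhga7, Pcdhgb2 and Pcdhgc5 were lower. Pcdh15, a part of the tip link of inner-ear hair cells, stood at 14, 63.0 and 120 in miNSC, at 0 to 20 in fibroblasts and at 1006 and 1683 in NSC (-4.49 ± 0.78 against NSC, adjusted p = 0.00027). Pcdhgc5 was at 12 to 78 in miNSC and at 247 and 390 in NSC (-3.72 ± 0.27), and Pcdhb7 at 88 to 370 against 832 and 507 (-1.85 ± 0.13). The NSC libraries differed from each other by a median absolute log2 value of 0.373 over all genes tested and 1.127 over alternate Pcdhg genes. The NSC group was 2 libraries of different passages, and its Xist was above that of miNSC. Its sum of neuron markers was also higher, though Elavl4 was lower (260 to 290, and 291 to 394 in miNSC) and Syt1 lay within the range of miNSC.

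Genes that act on protocadherin promoters or proteins were described from lists. Of 22 regulators of the clusters, 20 were higher in miNSC than in fibroblasts and the other 2, Wapl and Rest, were not called (median 1.06), against 42.8% of all genes tested higher and 33.7% lower. Against NSC 9 were higher and 2 lower, where all genes tested gave 20.9% and 19.7%. Dnmt3a, a DNA methyltransferase, stood at 90 to 170 in fibroblasts and 1412 to 2336 in miNSC (3.90 ± 0.13), and Pds5b, a regulator of cohesin, at 1048 to 1490 and 2213 to 3635 (1.33 ± 0.05). Ctcf stood at 632 to 916 and 1298 to 2150 (1.15 ± 0.05), and Stag2, a cohesin subunit, at 1630 to 2178 and 3608 to 5602 (1.28 ± 0.05). Of 20 intracellular partners, 12 were higher and 6 lower than in fibroblasts. Abi2 and Wasf1, of the WAVE complex that drives actin growth, stood at 511 to 695 and 136 to 751 in fibroblasts and at 1808 to 3924 and 640 to 2018 in miNSC. Fyn, a kinase, stood at 768 to 2504 and 5602 to 11648. The adaptor Dab1 was listed at 0 in each of the 6 fibroblast libraries and stood at 124 to 1258 in miNSC. Ptk2b, a kinase bound by alpha and gamma constant domains and named here after its values were seen, stood at 384 to 864 in fibroblasts and at most at 9 in miNSC. Of 14 classical cadherins tested 10 were higher and 3 lower, and of 11 large or atypical cadherins 8 were higher and 2 lower, against the same 42.8% and 33.7%.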

How the data were processed

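Messenger RNA was measured in 28 libraries, 2 for each of 14 groups named by the labels. The authors deposited 1 score per gene and library, whole numbers of a normalised expression value whose method is not given in the sources used here. RSEM, Bowtie2 2.0 and mm10 are named without role, per the submitters' processing notes. The same value stood at 63.2% of ranks in all 28 libraries, so total RNA changes and depth cannot be read from them, and depth and its precision are unknown. Values were taken as log2(value + 1). Genes with a mean of at least 10 were tested with limma 3.58.1 (R 4.3.3) in 1 fit with 1 term per group and a variance trend, with Benjamini-Hochberg adjustment and a threshold of 0.05. The fit was tested on simulated data. A gene was on in a line where all its libraries had at least 50. Members and lists were chosen with earlier results of these data known. Members given in full were non-clustered genes, those on in 1 to 3 lines and those with the widest line ranges, and of each list those with the smallest adjusted p; other members serve as examples. Coordinates come from GENCODE M21 and promoters from RefSeq. Pcdh8, Pcdh12 and Pcdhgb8 are not analysed here.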

Additional observations from a re-analysis of the deposited data

Results flagged for a closer look

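The difference between BKF and KF lines itself differed between Sox2-GFP and ICR embryonic fibroblasts for 25 of 65 members (38.5%), by a difference of differences in the same limma fit, against 32.1% of all genes tested. It was more positive in Sox2-GFP cells for 6 members and more negative for 19. Each mixture was 1 line of each strain, so strain, mixture and line cannot be told apart.

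Values are log2 differences of differences, Sox2-GFP minus ICR. For alternate Pcdhg genes they were Pcdhga1 2.801, Pcdhga10 -3.141, Pcdhga12 2.018, Pcdhga3 2.26, Pcdhga7 9.896, Pcdhga9 -2.734, Pcdhgb4 -6.469, Pcdhgb7 7.005. For alternate Pcdha genes they were the Pcdha11 entry ENSMUSG00000007440 -5.716, Pcdha2 -6.496, Pcdha4 -1.057, Pcdha6 -10.126. For Pcdhb genes they were Pcdhb13 -0.906, Pcdhb14 -0.408, Pcdhb16 -0.703, Pcdhb3 -1.273, Pcdhb7 -0.89, Pcdhb8 -2.668, Pcdhb9 -2.247. For non-clustered genes they were Pcdh1 -1.401, Pcdh10 -0.889, Pcdh18 1.555, Pcdh19 -0.63, Pcdh7 -1.031, Pcdh9 -0.874. Of these, the call of Pcdhb3 was lost in 22 alternative fits, those of Pcdha2 and Pcdha4 in 7 each, those of Pcdh9 and Pcdhga10 in 5 each, that of Pcdhb16 in 4, those of Pcdh1 and Pcdh10 in 2 each and those of Pcdhb7 and Pcdhga12 in 1 each. Pcdha6, with the largest size, was at 0 in both BKF libraries of Sox2-GFP cells and in both KF libraries of ICR cells, and its values elsewhere were at most 72, so its size depends on the pseudocount. For Pcdhga7 the ICR libraries stood at 0 and 5 in BKF and 46 and 47 in KF, and the Sox2-GFP libraries at 526 and 672 in BKF and 20 and 6 in KF. For Pcdhgb7 they stood at 91 and 76 against 1750 and 1418 in ICR, and at 196 and 186 against 26 and 28 in Sox2-GFP cells.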

How the results depend on the processing

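Counts of members called or on stayed within 1.5 times under pseudocounts of 5 and 16, no filter, a mean of at least 50, an upper-quartile scaling, a robust variance prior and other levels for on, with these exceptions. The calls at least 4-fold higher in a line were 14 and 10 at pseudocounts of 5 and 16 and 15 at a mean of at least 50, against 24. For the alternative fits, also those without single libraries or with a replicate block, the share of all genes tested was not kept. Their counts of calls thus cannot be set against that share, and whether an excess of the members held in them was not tested. Members on in exactly 1 line were 0 at a level of 20 and 11 at 200, against 3.17 and 3.65% of all genes tested. Leaving out single libraries gave 10 to 23 calls for BKF against KF in ICR, 18 to 31 in Sox2-GFP cells, 17 to 28 for their difference, 6 to 19 for passage 18 against 8, 1 to 8 for 2.5-year against 1.0-year fibroblasts, 42 to 49 for the F test over lines, 154 to 218 for line calls, 20 to 26 for those at least 4-fold, 26 to 37 against NSC, 55 to 59 against fibroblasts, 42 to 53 for the tail-tip lines, 3 to 6 for on in 1 line and 21 to 24 for on in 1 to 8. A group left with 1 library was assumed to vary like the others. Calls of single members were followed for the comparisons of groups and for the line calls at least 4-fold higher. Of these 244 called values, 82 lost the call under at least 1 alternative and 0 reversed. The cause was not tested. Smaller line calls and calls of the F test are not in this number.

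Replicate numbers do not pair the libraries: deviations of same-numbered libraries correlated at -0.0547 to 0.0709 over 78 pairs of groups. With the number as a block, the counts were 59 against fibroblasts, 28 against NSC, 51 for tail-tip lines, 44 for the F test, 168 line calls, 24 at least 4-fold, 11 between passages, 16 and 27 for BKF against KF, 25 for their difference and 3 by age. Depth limits could not be set, since the values hold no counts.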
